A study of Mus musculus with 6 samples.

Results

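Ppara encodes the fatty-acid-sensing nuclear receptor PPARalpha, and it was followed here together with genes of fatty acid uptake, mitochondrial and peroxisomal oxidation and lipid droplets. The list was given by name and holds 32 genes. A probe set carrying 1 gene symbol was found for 31 of them, out of 22180 genes in all, and each of the 31 had a single such probe set. Acsl1, a long-chain acyl-CoA synthetase gene, has none in the annotation used here and was not analysed. The samples were cultures of hepatocytes isolated from wild type adult male C57Bl/6 mice and kept without serum, 3 given DMSO (the solvent) and 3 given GW4064 at 2 µM, which activates the nuclear receptor for bile acids, FXR, all for 4 h. No group had a deletion or transgene, a single dose and a single time were measured, and the design text names 3 independent preparations without saying which array came from which. Values are log2 intensities of 6 Affymetrix arrays, between 0.94 and 13.07 over all probe sets, and the number of arrays limits their precision.

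PPARalpha binds DNA as a partner of the retinoid X receptor and, when fatty acids or fibrate drugs bind it, raises the enzymes that oxidise fat in the fasted liver. Fatty acids enter the cell, are bound and are activated to acyl-CoA; the carnitine shuttle then carries them into mitochondria, where repeated rounds of beta-oxidation yield acetyl-CoA and pass electrons to the respiratory chain. Peroxisomes shorten very long chains first. Most genes below are textbook PPARalpha targets, and the comparison asks whether they moved with Ppara when FXR was activated.

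Known FXR targets rose in the treated cultures. Nr0b2, the FXR target that encodes the repressor SHP, was higher by 2.10, 2.62 and 2.41 on the log2 scale in same-numbered pairs 1, 2 and 3, and Abcb11, the bile salt export pump gene, by 3.05, 2.98 and 3.22 (limma adjusted p = 3.70e-05, and 3.16e-04 with the block). Over all genes limma called 11 at an adjusted p under 0.05, which is 0.0496% of those tested, and 18, or 0.0812%, with the replicate number as a block. Hepatocyte markers were high on every array (9 of 10 measured, mean levels 6.67 to 12.83). None of 27 measured markers of Kupffer, endothelial, stellate, bile duct and fat cells was called with or without the block. In such bulk RNA, fewer cells of a type and less RNA per cell cannot be told apart.

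None of the 31 genes was called, with or without the block. At an unadjusted limma p under 0.05, 1 was lower (Ppara, 3.23% of the 31, against 3.06% of all genes) and 2 were higher (Crot and Vnn1, 6.45%, against 2.60%). With the block 4 were lower (Ppara, Cpt1a, Angptl4 and Cd36) and 4 higher (Acot1, Plin2, Vnn1 and Crot), 12.9% each, beside 5.12% and 4.01% of all genes. The median log2 change was -0.01 over the 31 and -0.02 over all genes, with 14 values above 0 and 17 below. For 23 of the 31 the 95% interval lay within 0.5 on the log2 scale, a 1.41-fold difference, in either direction, and with the block this held for 27 (84.7% and 90.3% of all genes). Smaller shifts lie within these intervals.

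**Figure D1:**
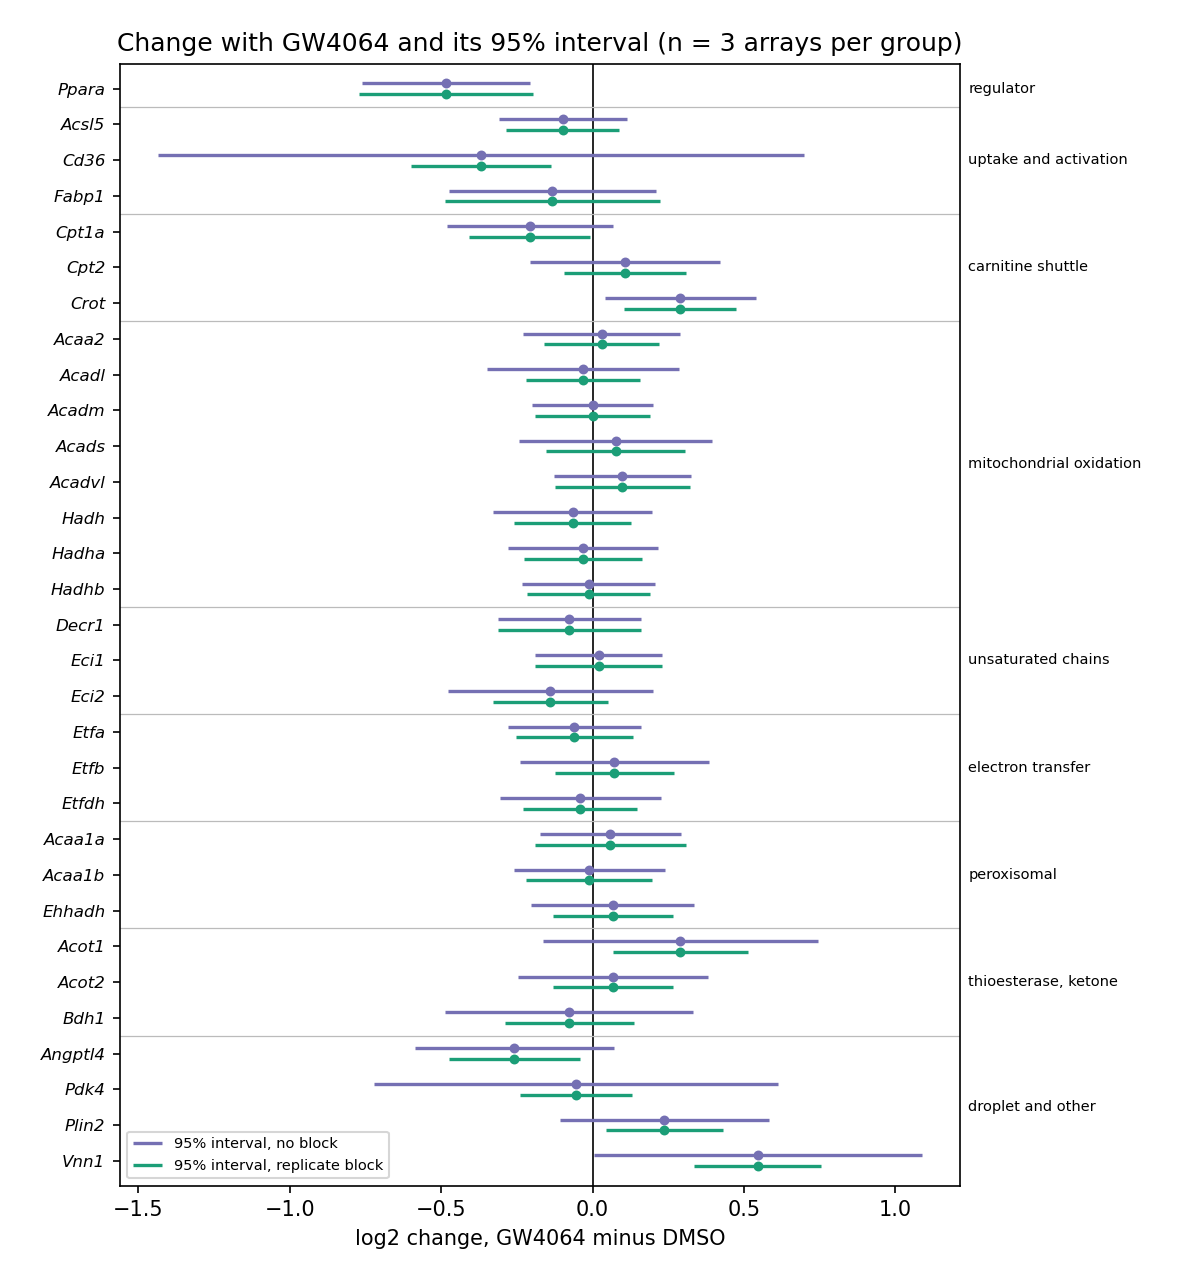
Log2 change with GW4064 (GW4064 minus DMSO, x axis) of the 31 measured genes, ordered by role. Points are the estimates and bars their 95% limma intervals, purple without a block and green with the replicate block; most bars cross 0, and the narrowing with the block is widest for Cd36, whose interval goes from -1.43 to 0.70 down to -0.60 to -0.14.

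Ppara (probe set 17313862) had the lowest change of the 31. Its levels were 6.28, 6.47 and 6.39 in DMSO replicates 1, 2 and 3 and 6.12, 5.87 and 5.70 with GW4064. The 3 treated arrays all lay under the 3 control arrays. The log2 change was -0.48 (SE 0.12, 95% interval -0.76 to -0.21), or 0.715-fold, with a limma adjusted p of 0.601, and 0.340 with the block, so it did not pass. The pairs differed in size, with -0.16 in pair 1, -0.60 in pair 2 and -0.69 in pair 3.

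Such a separation was not rare on these arrays. GW4064 lay wholly below DMSO in 6.19% of all genes and wholly above in 4.58%. Among the 31, Ppara was the single gene of the first kind and Crot the single gene of the second, 3.23% each. Crot encodes the peroxisomal carnitine octanoyltransferase, which prepares shortened chains for export to mitochondria. Its levels were 9.46, 9.68 and 9.45 in DMSO and 9.72, 9.97 and 9.76 with GW4064, and the pair differences of 0.27, 0.29 and 0.31 were nearly equal. The log2 change was 0.29 (SE 0.11), a 1.22-fold difference with a 95% interval of 1.03 to 1.45 (limma adjusted p = 0.857, and 0.375 with the block).

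Upstream sequence is shown for these 2 genes, whose groups did not overlap, for Fabp1, whose promoter holds the closest match to a PPAR response element, and for Plin2 and Cd36, which hold looser matches and had 1 sign in all 3 pairs. The element is a direct repeat, 2 copies of AGGTCA with 1 base between them, and it was sought on both strands in the RefSeq promoters of GRCm38.p6 (250 bases before to 50 after a gene's start), allowing up to 2 mismatches in the 12 fixed bases. Each line gives the 250 bases before the start, 5′ to 3′ on the gene's strand, with a match in capitals.

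Ppara, chr15:85735526-85735775 (plus strand): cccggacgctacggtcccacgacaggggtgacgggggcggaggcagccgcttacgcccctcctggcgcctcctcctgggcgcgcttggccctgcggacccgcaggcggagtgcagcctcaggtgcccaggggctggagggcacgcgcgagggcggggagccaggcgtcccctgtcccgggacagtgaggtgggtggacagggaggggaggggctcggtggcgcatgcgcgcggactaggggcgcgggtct
Crot, chr5:8997147-8997396 (minus strand): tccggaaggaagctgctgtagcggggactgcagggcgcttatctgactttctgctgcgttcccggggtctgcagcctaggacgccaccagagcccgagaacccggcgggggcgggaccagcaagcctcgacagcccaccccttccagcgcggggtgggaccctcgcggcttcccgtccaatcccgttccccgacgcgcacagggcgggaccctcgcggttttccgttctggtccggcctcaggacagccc
Plin2, chr4:86670060-86670309 (minus strand): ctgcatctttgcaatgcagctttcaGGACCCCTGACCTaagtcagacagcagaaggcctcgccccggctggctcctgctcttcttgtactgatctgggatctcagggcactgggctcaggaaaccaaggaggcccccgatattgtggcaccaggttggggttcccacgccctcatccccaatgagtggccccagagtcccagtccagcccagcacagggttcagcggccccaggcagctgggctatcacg
Cd36, chr5:17835897-17836146 (minus strand): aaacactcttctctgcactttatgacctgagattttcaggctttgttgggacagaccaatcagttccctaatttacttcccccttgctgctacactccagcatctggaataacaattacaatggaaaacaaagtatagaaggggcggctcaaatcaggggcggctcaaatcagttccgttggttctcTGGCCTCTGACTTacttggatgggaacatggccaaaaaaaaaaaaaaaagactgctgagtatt
Fabp1, chr6:71199629-71199878 (plus strand): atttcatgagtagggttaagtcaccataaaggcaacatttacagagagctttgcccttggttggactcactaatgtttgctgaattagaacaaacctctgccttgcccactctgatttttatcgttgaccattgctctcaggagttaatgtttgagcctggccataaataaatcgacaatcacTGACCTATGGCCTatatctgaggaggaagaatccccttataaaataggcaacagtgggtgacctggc

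Of the 27 genes with a RefSeq promoter, 4 held a match, namely Etfa, Fabp1, Plin2 and Cd36 (14.8%, against 3.86% of all 32851 promoters). The first share is per gene and the second per promoter, and the 27 genes have 28 promoters. The match of Fabp1, TGACCTATGGCCT at 67 to 55 bases before the start, had 1 mismatch, which 0.554% of all promoters reach. The other 3 had 2 mismatches, and all 4 read on the opposite strand to the gene. An FXR-type inverted repeat, AGGTCA and its reverse complement with 1 base between them, was within 2 mismatches in Acaa1b alone (1.14% of all promoters). The windows of Ppara and Crot held neither. Acaa2, Decr1, Vnn1 and Angptl4 had no entry. A match is a description of letters, and none of these genes was called.

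Of the uptake, binding and activation genes, all 3 measured had values below 0. Cd36, the fatty acid translocase of the plasma membrane, had levels of 7.16, 8.42 and 7.04 in DMSO and 6.67, 8.25 and 6.59 with GW4064. Replicate 2 stood more than 1 log2 unit above the others in both groups, so the groups overlap widely although every pair was lower, by 0.49, 0.17 and 0.45. Its log2 change of -0.37 had an SE of 0.47 without the block and 0.095 with it (limma adjusted p = 0.998 and 0.367). Acsl5, an acyl-CoA synthetase gene, differed by less, with a log2 change of -0.10 (95% interval -0.31 to 0.11) and a lower value in each pair. Fabp1, the liver fatty acid binding protein, lay between 2.17 and 2.75, and its mean was under the 25th percentile of all genes (2.91). This transcript is abundant in liver, and the probe set did not show it at a high level, so its log2 change of -0.13 (SE 0.15) says little.

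The carnitine shuttle genes differed in sign. Cpt1a, the rate-limiting outer membrane transferase, had levels of 8.58, 8.79 and 8.54 in DMSO and 8.46, 8.59 and 8.23 with GW4064. Its groups overlap, and the pair differences of -0.12, -0.20 and -0.31 grew in the same order as those of Ppara. The log2 change was -0.21 (SE 0.12, limma adjusted p = 0.957, and 0.534 with the block). It was -0.11 without GW4064 replicate 3 alone, which breaks a pair, and -0.25 to -0.16 with whole pairs left out. Cpt2, the inner membrane transferase, had a log2 change of 0.11 with an interval of -0.21 to 0.42. Crot, described above, was higher in every pair.

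The 8 core genes of mitochondrial beta-oxidation stayed close to 0, from -0.07 (Hadh, the short-chain hydroxyacyl-CoA dehydrogenase) to 0.10 (Acadvl, the very long-chain dehydrogenase), 4 on each side. None had the same sign in all 3 pairs, and no interval reached beyond -0.35 or 0.39. Acadm, the medium-chain acyl-CoA dehydrogenase, had the smallest SE of the 8 (0.09), with 9.66, 9.78 and 9.73 in DMSO and 9.74, 9.73 and 9.71 with GW4064. Its log2 change was 0.00 with an interval of -0.20 to 0.20, which is 0.872-fold to 1.15-fold. Acads and Acadl, for short and long chains, had 0.08 and -0.03, and Acaa2, the last thiolase step, 0.03. Hadha and Hadhb, the subunits of the trifunctional protein, had -0.03 and -0.01. The probe set of Hadhb lay between 3.82 and 4.06, under the median level of all genes (4.20), and the change there is less certain.

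Auxiliary and electron transfer genes were alike. Among Eci1, Eci2 and Decr1, which handle unsaturated chains, the changes were 0.02, -0.14 and -0.08. Eci2 was lower in each pair, by 0.19, 0.15 and 0.07, with an interval of -0.48 to 0.20. Its log2 change was -0.012 without DMSO replicate 2 alone, which breaks a pair, and -0.17 to -0.11 with whole pairs left out. Etfa, Etfb and Etfdh, the flavoprotein and its dehydrogenase that pass electrons on, had -0.06, 0.07 and -0.04. None of these 6 genes had groups apart.

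Peroxisomal oxidation genes were close to 0 as well. Ehhadh, the bifunctional enzyme, ranged from 6.20 to 6.55 in DMSO and from 6.29 to 6.51 with GW4064, a log2 change of 0.07 (interval -0.20 to 0.34). Acaa1a and Acaa1b, a pair of closely related thiolase genes whose probes may share signal, had 0.06 and -0.01. Ehhadh and Acaa1b are strong targets of PPARalpha agonists in mouse liver.

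The thioesterases Acot1 and Acot2, which release free fatty acids from acyl-CoA, belong to a cluster of near-identical copies, and their signals may not be separate. Acot1 had levels of 3.54, 4.14 and 3.61 in DMSO and 4.00, 4.42 and 3.74 with GW4064. It was higher in every pair, by 0.46, 0.28 and 0.13, but the groups overlap and the level is low on the array scale. Its log2 change was 0.29 (SE 0.20, limma adjusted p = 0.963, and 0.458 with the block). It was 0.11 without GW4064 replicate 2 alone, which breaks a pair, and 0.21 to 0.37 with whole pairs left out. Acot2 lay at 11.17 to 11.58 with a change of 0.07. Bdh1, the mitochondrial enzyme that makes the ketone body 3-hydroxybutyrate, had -0.08 (interval -0.49 to 0.33). Its probe set lay between 3.95 and 4.57, around the median level of all genes (4.20).

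The droplet, secreted and regulatory targets went in both directions. Vnn1, the pantetheinase gene and a sensitive PPARalpha target, had the highest change of the 31. Its levels were 7.67, 8.21 and 7.39 in DMSO and 8.36, 8.68 and 7.87 with GW4064. The groups overlap because replicate 3 with GW4064 lay below replicate 2 with DMSO, yet each pair was higher, by 0.69, 0.47 and 0.47. The log2 change was 0.55 (SE 0.24), 1.46-fold with a 95% interval of 1.00 to 2.13, or 0.34 to 0.76 on the log2 scale with the block. Its limma adjusted p was 0.881, and 0.170 with the block, the smallest of the 31 there.

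Plin2, the coat protein of lipid droplets, pointed the same way as Vnn1. It had 10.16, 10.59 and 10.13 in DMSO and 10.38, 10.76 and 10.45 with GW4064, and was higher in each pair, by 0.22, 0.18 and 0.31. Its log2 change was 0.24 (SE 0.15, limma adjusted p = 0.961, and 0.481 with the block). It was 0.12 without GW4064 replicate 2 alone, which breaks a pair, and 0.20 to 0.27 with whole pairs left out. Angptl4, a secreted inhibitor of lipoprotein lipase, pointed the other way. Its levels were 8.82, 9.28 and 8.81 in DMSO and 8.70, 8.87 and 8.58 with GW4064, pair differences of -0.12, -0.41 and -0.24, with groups that overlap. The log2 change was -0.26 (SE 0.15, limma adjusted p = 0.951, and 0.490 with the block). It was -0.10 without DMSO replicate 2 alone, which breaks a pair, and -0.33 to -0.18 with whole pairs left out. Pdk4, the kinase that shuts off pyruvate dehydrogenase in fasting, was flat within pairs, at -0.03, -0.09 and -0.04, although its level went from 6.14 to 7.13 between arrays.

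**Figure D2:**
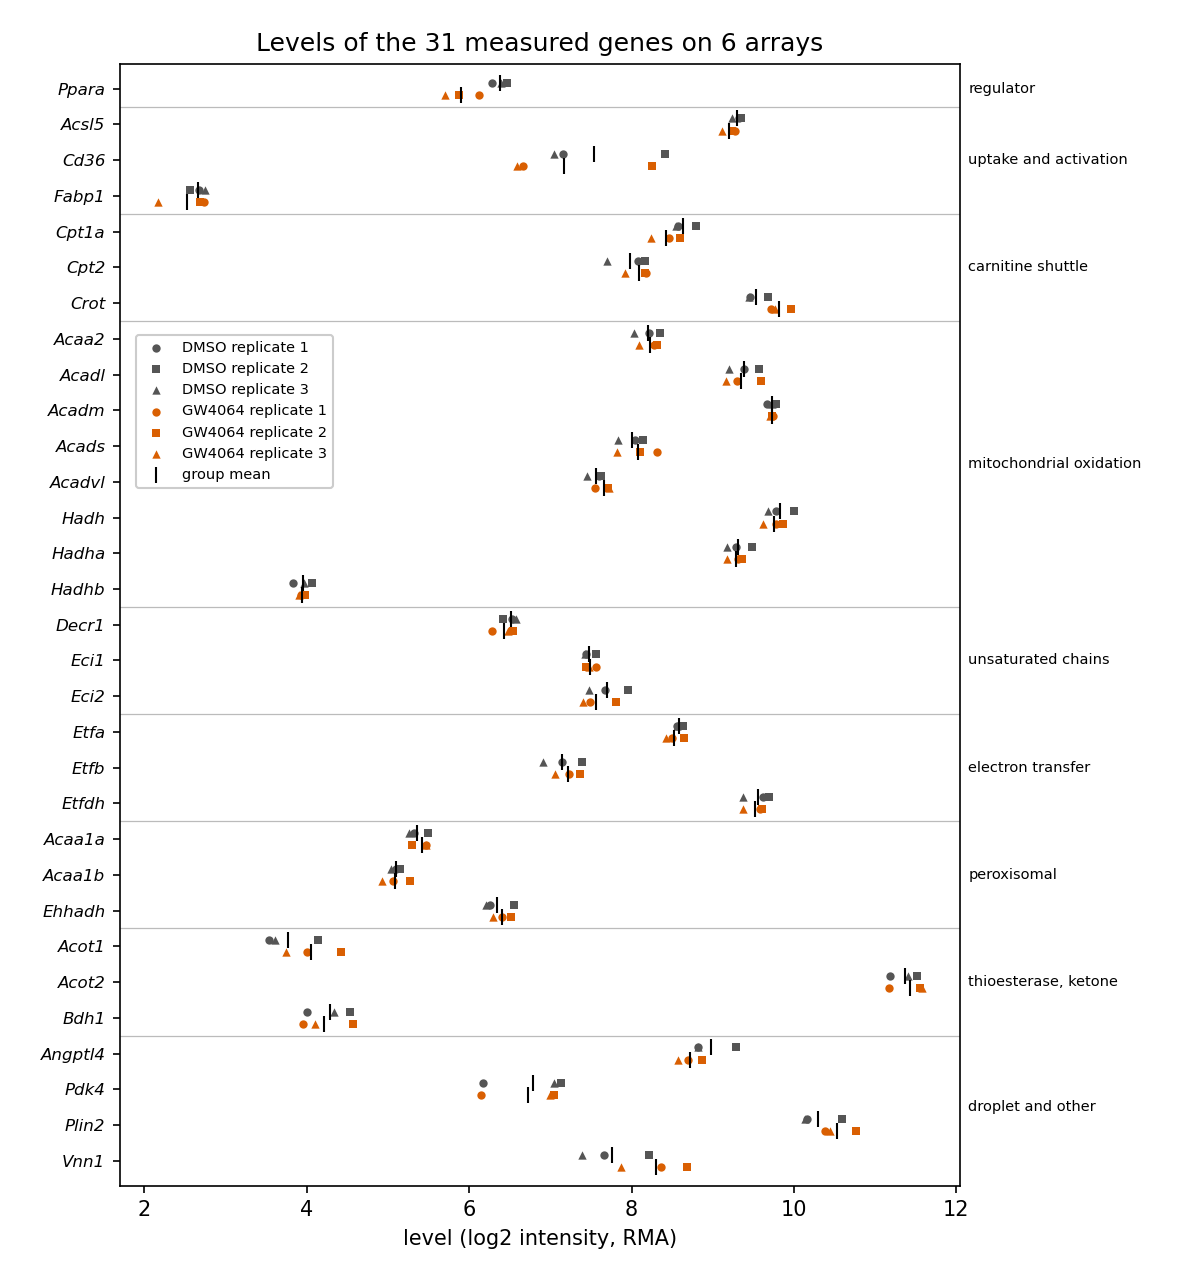
Level of each measured gene (log2 intensity, x axis) on the 6 arrays, grey for DMSO and orange for GW4064, with marker shapes for replicates 1 to 3 and a black bar at each group mean. Grey and orange symbols overlap in all genes but Ppara and Crot, and Cd36, Pdk4 and Vnn1 are spread most widely; levels of different probe sets are not comparable with each other.

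The genes were split in sign, whereas Ppara was lower in each pair. Besides Ppara, 6 of 30 were lower in all 3 pairs (Cpt1a, Eci2, Acsl5, Angptl4, Pdk4 and Cd36), and 4 were higher in all 3 (Acot1, Plin2, Vnn1 and Crot). With Ppara included these are 22.6% and 12.9% of the 31, against 18.6% and 12.6% of all genes. The median difference of the 30 was 0.01, -0.04 and -0.02 in pairs 1, 2 and 3, while Ppara had its 2 larger differences in pairs 2 and 3. Only Cpt1a, Acot1 and Acsl5 had their 3 pair differences in the order of Ppara, 10.0% of the 30, against 16.2% of all genes. Of these, Acot1 was on the positive side. A message level at 4 h does not report receptor protein or activity, and neither was measured.

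**Figure D3:**
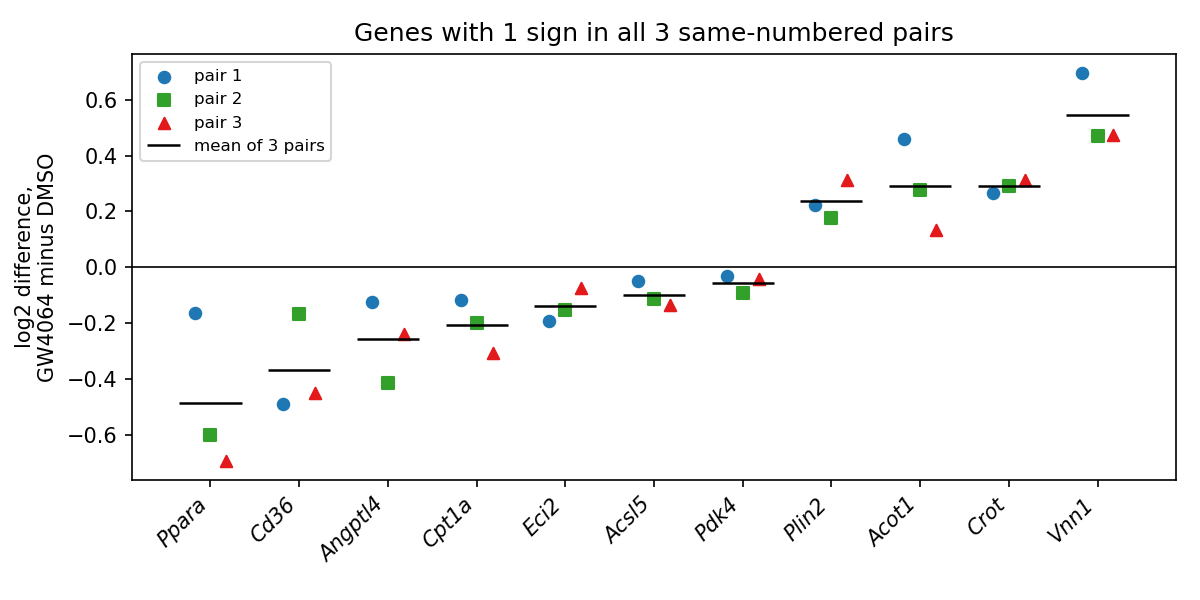
Log2 difference (GW4064 minus DMSO, y axis) in same-numbered pairs 1, 2 and 3 for the 11 genes with 1 sign in all pairs, with a black bar at the mean. Ppara is lowest at -0.48 and Vnn1 highest at 0.55; the genes below 0 other than Ppara and the genes above 0 have means between -0.37 and 0.55.

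The arrays of these genes were ordered by replicate number more than by treatment. In 20 of the 31 genes replicate 2 was the highest array in DMSO and also in GW4064, 64.5%, against 14.5% of all genes and 18.1% of the 5545 genes at or above the 75th percentile of level. Replicate 3 was the lowest in both groups in 16 genes, 51.6%, against 17.7% of all genes and 27.6% of those 5545. No gene of the 31 was highest in replicate 1 or in replicate 3 in both groups. By role, the 20 genes were 5 of 8 in mitochondrial beta-oxidation, 3 of 3 in electron transfer, 4 of 4 among the droplet, secreted and regulatory targets, 2 of 3 each in peroxisomal oxidation, the carnitine transferases and the thioesterase and ketone body group, and 1 of 3 each in uptake and activation and among the enzymes for unsaturated chains. Ppara was not one of them: it was highest in replicate 2 in DMSO and in replicate 1 with GW4064.

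**Figure D4:**
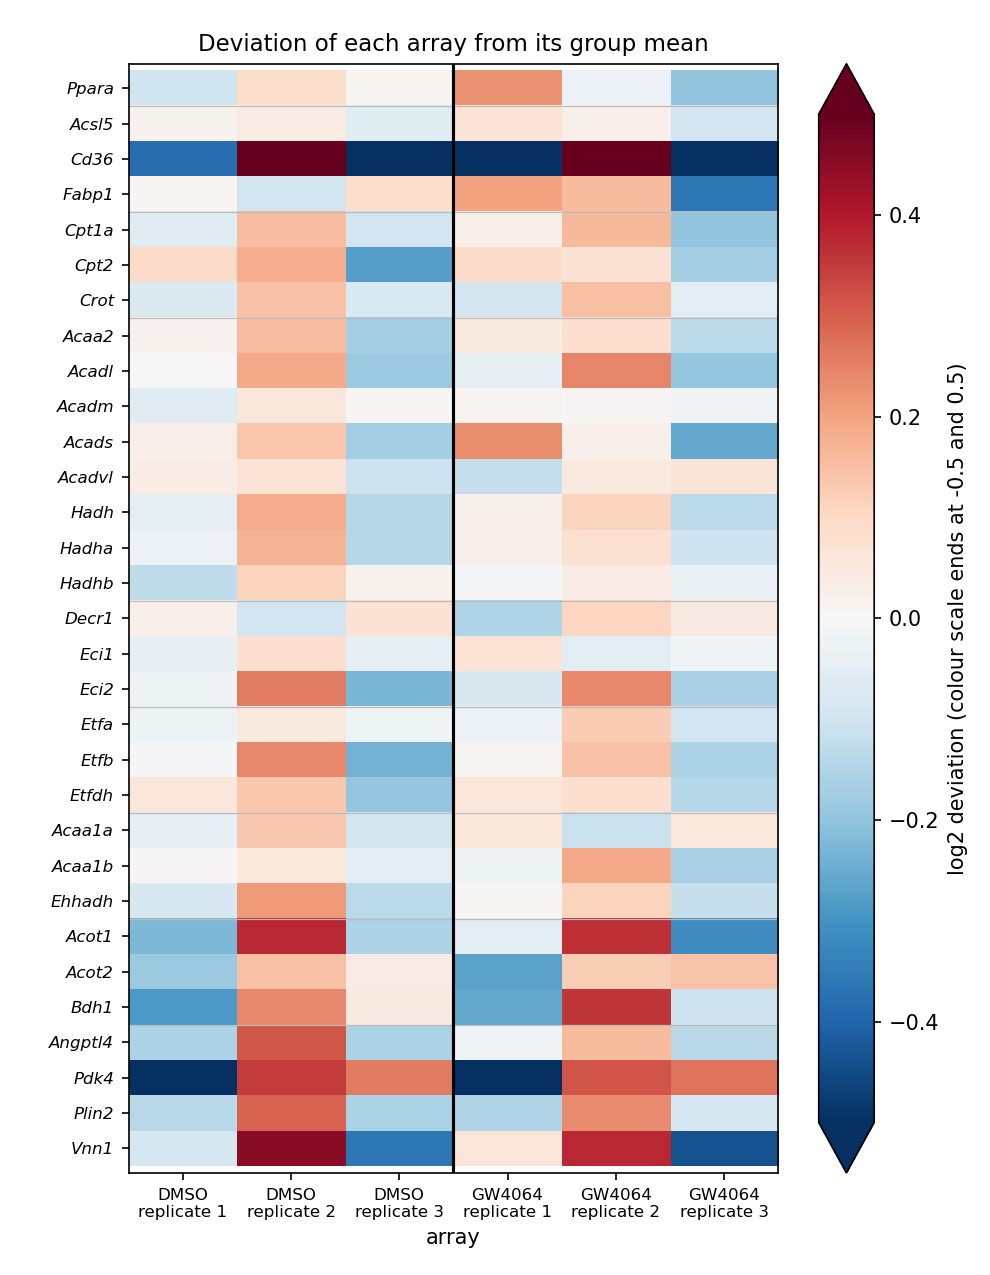
Deviation of each array from the mean of its group (log2, colour, ending at -0.5 and 0.5) for the 31 genes in rows, with DMSO replicates 1 to 3 left of the black line and GW4064 replicates right of it. The column of replicate 2 is mostly red and that of replicate 3 mostly blue in both groups, and the colours of Cd36 reach the ends of the scale.

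The range of the 3 pair means exceeded the size of the change in 27 of 31 genes, 87.1%, against 78.8% of all genes, 81.4% of those at or above the median level and 83.3% of those at or above the 75th percentile, so this share is near the background. The exceptions were Ppara, Acadvl, Acaa1a and Crot. The range was 1.52 in Cd36, 0.93 in Pdk4, 0.81 in Vnn1, 0.60 in Acot1 and 0.57 in Bdh1, and its median was 0.29 over the 31 and 0.19 over all genes. Among the hepatocyte markers, Ttr, Serpina1a and Fgb were highest in replicate 2 and lowest in replicate 3 in both groups. That order was held by 41.9% of the 31 genes and 5.69% of all genes. The other hepatocyte markers did not have it, and Cps1 and Tat were highest in replicate 3 in both groups. Markers of other cells varied between replicate numbers too, in both directions. The macrophage and lysosome marker Cd68 was at 9.63, 8.53 and 10.02 in DMSO replicates 1, 2 and 3 and at 9.86, 8.46 and 9.93 with GW4064, lowest in replicate 2 both times. The summed level of the 7 macrophage markers, on the log2 scale, ranged from 8.82 to 10.12 in DMSO and from 8.72 to 10.04 with GW4064, although the other 6, Clec4f, Adgre1, Vsig4, Cd5l, Marco and Csf1r, had mean levels of 2.76 to 4.31, 2 of the 7 under the 25th percentile of all genes. Of these 6 dim markers, 5 were highest in replicate 2 in DMSO (all but Cd5l), opposite to Cd68, which carries the sum. In DMSO, Adgre1 was nearly tied with replicate 3 (3.027 against 3.026) and Csf1r with replicate 1 (3.99 against 3.97). With GW4064, 2 were highest in replicate 2 (Adgre1 and Vsig4), while Clec4f, Cd5l and Csf1r were lowest in it, as Cd68 was. The summed endothelial markers (6 of 6 measured) were highest in replicate 2, at 7.39 and 7.26, against 6.88 to 7.07 on the other arrays. The part of these in the pattern was not tested.

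Other genes of the pathway were read from lists of related function. Over all genes the median change was -0.02, so more genes lay below 0 than above it, and counts by direction stand beside that. Of 26 measured further PPARalpha targets and omega-oxidation genes, 14 were higher and 12 lower, none was called, and the median was 0.01. The smallest p belonged to Txnip, a thioredoxin inhibitor gene, at -0.85 (SE 0.25, limma adjusted p = 0.739), then to Acot3, another thioesterase of the Acot cluster, at 0.27, and Lpin1, a phosphatidate phosphatase and coactivator, at -0.31. Replicate 2 was highest in both groups in 11 of these 26 genes (42.3%).

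Further mitochondrial oxidation and ketone body genes (24 measured) were lower in 17, with a median of -0.07 and none called. Acsm5, a medium-chain acyl-CoA synthetase gene, had 0.56 (SE 0.11, limma adjusted p = 0.231) and groups apart, from 4.33 ± 0.11 to 4.89 ± 0.12 (mean ± SD, n = 3). Bdh2 had -0.33. The carnitine acetyltransferase gene Crat has a pair of probe sets that differ in sign, with -0.20 (SE 0.09) in the brighter one, at a mean level of 7.29, and 0.04 (SE 0.12) in the other, at 4.66. Replicate 2 was highest in both groups in 4 of the 24 (16.7%), near the 14.5% of all genes.

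Among 27 further peroxisomal genes, 13 were higher and 14 lower, with none called and a median of -0.01. Acot5, a peroxisomal thioesterase of the Acot cluster, had 0.71 (SE 0.14, limma adjusted p = 0.327), with levels of 3.60, 3.52 and 3.78 in DMSO and 4.66, 4.13 and 4.26 with GW4064. Pex26, which anchors the peroxisomal import machinery, had 0.36, and the transporter gene Abcd2 had 0.29 at a low level. Replicate 2 was highest in both groups in 9 of 27 (33.3%).

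In the list of PPAR partners and coregulators, 16 of 22 measured genes were lower, with a median of -0.07. Nr0b2 rose (limma adjusted p = 1.17e-04, 0.00420 with the block) and was the 1 call. Nr1h4, the gene of FXR itself, had -0.72 (SE 0.09, limma adjusted p = 0.0535, and 0.0618 with the block), and Hnf4a, a regulator of hepatocyte identity, 0.55 (SE 0.12, adjusted p = 0.393). Nr1h4 thus had a larger negative value than Ppara, in every pair, at -0.67, -0.70 and -0.79. In 6 of these 22 genes replicate 2 was highest in both groups (27.3%). Fatty acid uptake and droplet genes outside the list were lower in 20 of 28, none was called, and the median was -0.04. In 9 of these 28 replicate 2 was highest in both groups (32.1%). Acsl4 had -0.29, the triglyceride synthesis gene Dgat2 -0.24 and the lipase family gene Pnpla3 0.37, with nearly equal differences, from 0.37 to 0.38, in the 3 pairs.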

How the data were processed

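RNA from 6 hepatocyte cultures was hybridised to Affymetrix MoGene-2_0-st arrays, 1 per culture. The authors deposited log2 intensity values per probe set, normalized with RMA; Partek is named too, per the submitters' processing notes, which give no version. That the base is 2 follows from how far the values reach. Of 41345 probe sets, 23521 carry exactly 1 symbol, 1814 several and 16010 none in the platform annotation. The probe set with the highest mean was kept per gene, which left 22180 genes.

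GW4064 was compared with DMSO by limma 3.58.1 in R 4.3.3 (lmFit and eBayes, no block, no filter), with p-values adjusted by Benjamini-Hochberg over all genes and a threshold of 0.05. Fits were tested on simulated data with planted changes larger than any of the 31 genes had. That test therefore does not bear on changes of their size. Same-numbered arrays were treated as pairs, since their deviations from the group means correlated at 0.26, 0.34 and 0.45; the numbers come from the titles. Without the block the p-values rest on the spread of these 6 arrays within their groups. Those with the block rest on the spread of the differences within same-numbered pairs. In both, eBayes draws the variance of each gene towards a value shared by all genes. The genes, lists and tests were chosen with earlier results of these data known. Outside the 31 genes, those named are Abcb11, Nr0b2, and from each list the called genes and the 3 with the smallest p; Cd68 and the replicate pattern were singled out after their values were seen. Alternatives were quantile normalization, median centring, filters on dim genes, the replicate block, eBayes with trend, other uses of probe sets, and leaving out arrays or pairs.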

Additional observations from a re-analysis of the deposited data

How the results depend on the processing

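Across 17 alternatives none of the 31 genes was called. The total called over all genes moved from 11 to 18 with the replicate block, 17 with eBayes trend and robust, and 2 with all 41345 probe sets tested singly, where more features enter the adjustment; with arrays or pairs left out it was 2 to 5. The replicate block, which pairs same-numbered arrays, changed no call among the 31. The median change of the 31 went from -0.070 to 0.062 with arrays or pairs left out, lowest without GW4064 replicate 2 and highest without DMSO replicate 2. Ppara kept its sign, from -0.65 to -0.38. The sign held in all settings for 11 genes and turned in at least 1 for 20, whose log2 changes with arrays or pairs left out were Cpt2 -0.031 to 0.20, Acads -0.041 to 0.20, Acadl -0.15 to 0.064, Acadm -0.036 to 0.028, Ehhadh -0.00075 to 0.17, Hadh -0.14 to 0.026, Hadha -0.10 to 0.052, Hadhb -0.077 to 0.042, Acaa1a -0.014 to 0.18, Acaa1b -0.10 to 0.072, Acaa2 -0.055 to 0.11, Eci1 -0.034 to 0.090, Decr1 -0.18 to 0.010, Etfb -0.045 to 0.19, Etfdh -0.14 to 0.031, Bdh1 -0.26 to 0.051, Acot2 -0.026 to 0.20, Fabp1 -0.26 to 0.092, Pdk4 -0.36 to 0.24, Cd36 -0.91 to 0.071. Those that kept their sign beside Ppara also moved: Cpt1a -0.29 to -0.11, Acadvl 0.013 to 0.18, Eci2 -0.26 to -0.012, Etfa -0.12 to -0.011, Acot1 0.11 to 0.48, Acsl5 -0.13 to -0.050, Plin2 0.12 to 0.39, Vnn1 0.36 to 0.77, Angptl4 -0.34 to -0.10, Crot 0.22 to 0.36. Leaving out a single array keeps its replicate number in 1 group only, so these ranges also hold differences between replicate numbers. With whole pairs left out Cd36 went from -0.47 to -0.31 and Pdk4 from -0.066 to -0.036, with no turn of sign. Acads did turn there, at -0.024 without pair 1. So did Acadm, Hadha, Hadhb, Acaa1a, Acaa1b, Eci1, Decr1 and Fabp1, each without at least 1 of the pairs. The change of Crat was -0.081 with its probe sets averaged. Centring on array medians also turned Hadhb (0.0019) and Acaa1b (0.0049), where the centring itself moves every change upwards. Nr1h4 passed among genes at or above the median level (adjusted p = 0.0434) and with trend and robust (0.0171), at -0.72 in both. The count of genes highest in replicate 2 of both groups was 20, or 22 after quantile normalization and 20 after centring, and that of genes lowest in replicate 3 was 16, or 15 under either, settings chosen after seeing the data. Filters on level kept 30 of the 31 genes at the 25th percentile and 28 at the median; Fabp1, Hadhb and Acot1 are the dim ones.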
